A study of Mus musculus with 13 samples.

Results

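Pmel, Tyrp1, Dct and Tyr, 4 transcripts that mark pigment cells, were followed through RNA-seq libraries of T cells sorted from B16-F10 tumors. They are 4 of the 12963 gene rows of the table of normalized reads and were taken by symbol. They were chosen by their levels in these libraries, which had already been seen. Those levels are therefore given as a description, without a test.

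B16-F10 is a pigmented mouse melanoma line. It was implanted under the skin of adult Foxp3-EGFP-DTR mice of both sexes, in which the endogenous Foxp3 gene drives EGFP and the diphtheria toxin receptor. Diphtheria toxin (DTx) then removes Foxp3+ regulatory T (Treg) cells, and PBS was the control. The 13 libraries form 5 groups, all of that genotype and all tumor-infiltrating: Treg cells under PBS (n = 3), CD4+ conventional T (Tconv) cells under PBS (n = 2), CD8+ Tconv cells under PBS (n = 2), CD4+ Tconv cells under DTx (n = 3) and CD8+ Tconv cells under DTx (n = 3). Treg cells were sorted as EGFP+ and Tconv cells as EGFP- cells from digested tumors. There is no Treg group under DTx, and the tumor cells themselves were not analysed here.

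Melanin is made inside melanosomes, lysosome-related organelles of pigment cells. Tyr encodes tyrosinase, the rate-limiting enzyme of the pathway. Tyrp1 and Dct encode the related tyrosinase-related protein 1 and dopachrome tautomerase, which act on later intermediates. Pmel encodes the protein that forms the fibrils on which melanin is laid down. The transcription factor Mitf activates many pigment genes through the M-box, an extended E-box in their promoters. T cells do not make melanin, and B16 melanoma expresses these genes.

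The 250 bases before the RefSeq start of Tyrp1, Dct and Tyr (build GRCm38.p6) are shown because all 3 hold an M-box, searched as TCATGTG on both strands. Capitals mark the motif, and CACATGA is its reverse complement. Each is written 5′ to 3′ on the strand of its gene. Tyrp1 lies at chr4:80833963-80834212 (+), Dct at chr14:118052247-118052496 (-) and Tyr at chr7:87493513-87493762 (-).
Tyrp1: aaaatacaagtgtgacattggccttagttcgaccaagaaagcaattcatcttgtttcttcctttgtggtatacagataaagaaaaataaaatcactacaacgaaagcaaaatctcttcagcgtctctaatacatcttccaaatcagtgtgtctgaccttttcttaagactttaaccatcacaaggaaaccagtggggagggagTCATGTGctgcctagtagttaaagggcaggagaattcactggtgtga
Dct: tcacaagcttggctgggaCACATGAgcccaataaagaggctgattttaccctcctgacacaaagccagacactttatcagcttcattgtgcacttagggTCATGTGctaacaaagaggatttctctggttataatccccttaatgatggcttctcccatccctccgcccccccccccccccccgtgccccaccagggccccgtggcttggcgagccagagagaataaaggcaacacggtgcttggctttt
Tyr: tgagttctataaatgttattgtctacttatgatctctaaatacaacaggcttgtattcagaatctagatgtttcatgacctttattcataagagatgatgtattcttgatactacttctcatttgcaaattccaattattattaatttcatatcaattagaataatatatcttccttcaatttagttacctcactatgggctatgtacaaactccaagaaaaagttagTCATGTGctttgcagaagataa
The motif began 47 bases before the start in Tyrp1 and 22 bases before it in Tyr. In Dct one copy began 151 bases before the start and a reverse copy 232 bases before it. Of 32851 promoter windows of this length, 1068 (3.25%) held the motif. A match of letters is not a measured binding site.

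The libraries held 15947556 to 34140486 reads recovered from the table, and 1 read was worth 0.661 to 1.37 normalized reads. A gene with 0 reads may thus have a level of up to 1.98 to 4.10 normalized reads, the worth of 3 reads. Intervals and such limits cover counting error only, since no molecular identifiers were used. The sorted cells carried the markers of their labels. Cd3e, a chain of the T cell receptor complex, was at 20019 to 36295 normalized reads in every library. Foxp3 was at 1178 to 1896 in Treg libraries and at most 12.1 elsewhere. Cd8a was at 23475 to 48330 in CD8+ libraries. Elsewhere it was at 26.4 to 180 under PBS and at 103, 711 and 1302 in CD4+ DTx replicates 1 to 3. Cd4 was at 10595 to 32504 in Treg and CD4+ libraries. In CD8+ libraries it was at most 413, in CD8+ DTx replicate 1.

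All 4 transcripts were minor in these libraries. Their mean over the 13 libraries was 146 normalized reads for Tyrp1, 136 for Pmel, 85.7 for Dct and 23.8 for Tyr, against a median of 629 over all rows. Their summed level was 906 ± 254 normalized reads (SD, n = 3) in Treg cells, 441 ± 9.37 (n = 2) in CD4+ PBS cells and 400 ± 324 (n = 2) in CD8+ PBS cells. It was 128 ± 40.8 (n = 3) in CD4+ DTx cells and 102 ± 35.6 (n = 3) in CD8+ DTx cells. The order of the group means was therefore Treg, CD4+ PBS, CD8+ PBS, CD4+ DTx and CD8+ DTx.

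By library, the summed level was 727, 795 and 1197 in Treg replicates 1, 2 and 3. It was 435 and 448 in CD4+ PBS replicates 2 and 3, and 629 and 171 in CD8+ PBS replicates 2 and 3. Every Treg library was above every other library. Under DTx it was 170, 89.0 and 124 in CD4+ replicates 1 to 3 and 125, 60.7 and 120 in CD8+ replicates 1 to 3. The 7 PBS libraries thus ranged from 171 to 1197 (median 629) and the 6 DTx libraries from 60.7 to 170 (median 122). The edges of these ranges met: CD8+ PBS replicate 3 held 170.6 and CD4+ DTx replicate 1 held 170.2. Of neighbouring groups in the order, CD4+ PBS overlapped CD8+ PBS, and CD4+ DTx overlapped CD8+ DTx. In these bulk samples, fewer pigment cells and less RNA per such cell cannot be told apart. Whether intact pigment cells were present in the sorted samples was not tested.

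**Figure D1:**
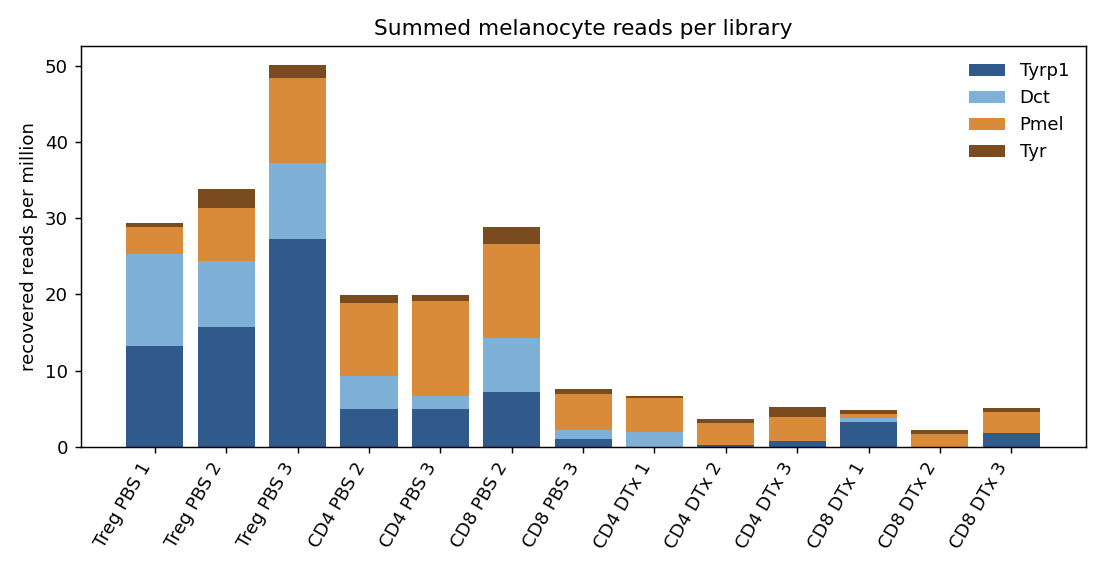
Summed level of Pmel, Tyrp1, Dct and Tyr, as RPM of the recovered reads, in each of the 13 libraries, by group. Treg libraries reach 29.3 to 50.1 RPM, and the 6 DTx libraries stay at 2.21 to 6.70 RPM.

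As RPM of the recovered reads, which leaves out the scaling of the table, the Treg libraries were again on top. The sums were 29.3, 33.8 and 50.1 RPM in Treg cells, 19.9 and 19.9 in CD4+ PBS cells and 28.8 and 7.56 in CD8+ PBS cells. DTx libraries held 6.70, 3.65 and 5.25 in CD4+ cells and 4.84, 2.21 and 5.09 in CD8+ cells. On this scale too, no DTx library reached the lowest PBS library. Behind them were 128 to 1017 recovered reads in the PBS libraries and 63 to 182 in the DTx libraries.

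Tyrp1, a tyrosinase-family enzyme, was the transcript with the highest level in Treg cells. It stood at 328, 369 and 652 normalized reads in Treg replicates 1 to 3 (450 ± 177, SD, n = 3). It stood at 108 and 112 in CD4+ PBS cells (110 ± 2.59, n = 2) and at 156 and 22.7 in CD8+ PBS cells (89.1 ± 93.9, n = 2). All 3 Treg libraries were above all other libraries. Under DTx it stood at 0, 5.11 and 18.4 in CD4+ cells (7.85 ± 9.52, n = 3). In CD8+ DTx cells it stood at 82.2, 0 and 43.1 (41.8 ± 41.1, n = 3). CD4+ DTx libraries were all below CD4+ PBS libraries, while CD8+ DTx and CD8+ PBS libraries overlapped. The 0 in CD4+ DTx replicate 1 allows a level of up to 2.81 and the 0 in CD8+ DTx replicate 2 up to 2.89 normalized reads. The Treg mean was 4.10-fold the CD4+ PBS mean and 5.05-fold the CD8+ PBS mean. It was 57.3-fold the CD4+ DTx mean and 10.8-fold the CD8+ DTx mean.

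Dct, the dopachrome tautomerase gene, had the same 3 libraries on top. It was at 297, 205 and 238 normalized reads in Treg replicates 1 to 3 (247 ± 46.9, n = 3). It was at 92.9 and 37.6 in CD4+ PBS cells (65.3 ± 39.1, n = 2) and at 154 and 26.7 in CD8+ PBS cells (90.5 ± 90.3, n = 2). Treg libraries did not overlap either PBS Tconv group, while those groups overlapped each other. Under DTx it was at 48.6, 0 and 0 in CD4+ cells (16.2 ± 28.1, n = 3) and at 14.8, 0 and 0 in CD8+ cells (4.93 ± 8.53, n = 3). Dct was thus at 0 in 4 of 6 DTx libraries and in none of the 7 PBS libraries. The 4 zeros allow levels of up to 2.89 to 4.04 normalized reads. The Treg mean was 3.78-fold the CD4+ PBS mean and 2.73-fold the CD8+ PBS mean. Dct overlaps 4930435M08Rik, a gene on the opposite strand, and whether reads were counted by strand was not given in the sources used here.

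Pmel, the melanosome fibril gene, did not share this order. It was at 88.1, 161 and 267 normalized reads in Treg replicates 1 to 3 (172 ± 90.1, n = 3). It was at 209 and 281 in CD4+ PBS cells (245 ± 50.7, n = 2) and at 270 and 108 in CD8+ PBS cells (189 ± 114, n = 2). The 3 PBS groups overlapped, with the CD4+ PBS mean 1.42-fold and the CD8+ PBS mean 1.10-fold the Treg mean. Under DTx it was at 115, 71.6 and 75.1 in CD4+ cells (87.2 ± 24.1, n = 3) and at 14.8, 44.3 and 64.6 in CD8+ cells (41.2 ± 25.1, n = 3). Both DTx groups lay below the PBS group of the same cell type. CD4+ DTx replicate 1, at 115, lay above Treg replicate 1 and CD8+ PBS replicate 3. Pmel was above 0 in all 13 libraries, at 16 recovered reads or more.

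Pmel lies beside 2 genes that T cells use. In the GRCm38 annotation it overlaps, on the opposite strand, Dgka by 105 bases that are exonic in both genes. It overlaps Cdk2 by 837 bases, of which 0 are exonic in Pmel and 319 in Cdk2. Dgka, a diacylglycerol kinase that dampens T cell receptor signalling, stood at 12160 normalized reads in Treg cells, 49427 in CD4+ PBS cells and 32870 in CD8+ PBS cells. It stood at 17904 in CD4+ DTx cells and 10466 in CD8+ DTx cells (group means). Both Pmel and Dgka thus had the highest group mean in CD4+ PBS cells and the lowest in CD8+ DTx cells. Pmel amounted to 0.139% to 1.61% of the Dgka level. Reads of Pmel and Dgka in the shared bases cannot be told apart without strand, and their part in the Pmel level was not tested. No gene of the annotation overlaps Tyrp1 or Tyr.

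Tyr, tyrosinase itself, was the lowest of the 4. It was at 13.5, 59.6 and 40.0 normalized reads in Treg replicates 1 to 3 (37.7 ± 23.1, n = 3). It was at 24.6 and 17.8 in CD4+ PBS cells (21.2 ± 4.78, n = 2) and at 49.8 and 13.3 in CD8+ PBS cells (31.6 ± 25.8, n = 2). Treg replicate 1 lay below both CD4+ PBS libraries. Under DTx it was at 6.55, 12.3 and 30.3 in CD4+ cells (16.4 ± 12.4, n = 3) and at 12.9, 16.4 and 12.1 in CD8+ cells (13.8 ± 2.26, n = 3). Each of these ranges overlapped that of Treg cells, and Tyr was above 0 in all 13 libraries.

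**Figure D2:**
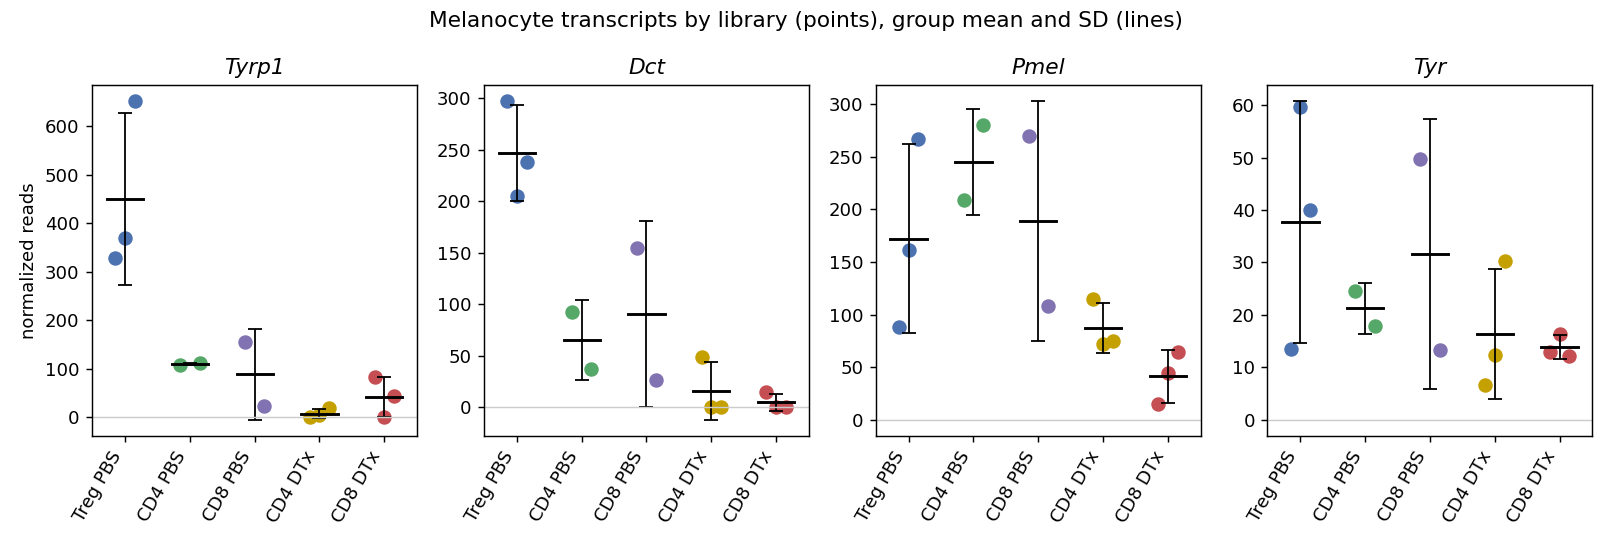
Normalized reads of Tyrp1, Dct, Pmel and Tyr in each library (points) with group mean and SD (bars), 1 panel a gene. Treg libraries are above all others for Tyrp1 and Dct, and the PBS groups overlap for Pmel and Tyr.

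Per kilobase of exon, the scale on which genes can be set against each other, Tyrp1 led in Treg cells with a mean level of 165 normalized reads per kilobase. Dct followed with 112, Pmel with 80.9 and Tyr with 6.24. In CD4+ PBS cells Pmel led with 115 per kilobase, against 40.4 for Tyrp1, 29.6 for Dct and 3.51 for Tyr. In CD8+ PBS cells Pmel also led with 88.7, against 41.1 for Dct, 32.7 for Tyrp1 and 5.23 for Tyr. The leading transcript was therefore Tyrp1 in Treg cells and Pmel in both PBS Tconv groups. Under DTx, Pmel stood at 40.9 per kilobase in CD4+ cells and 19.4 in CD8+ cells. Tyrp1 stood there at 2.88 and 15.3, Dct at 7.36 and 2.24, and Tyr at 2.71 and 2.29.

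Groups were compared one transcript at a time. Between Treg and CD4+ PBS cells 2 of the 4 transcripts did not overlap, Tyrp1 and Dct, as did 56.7% of all genes. Between Treg and CD8+ PBS cells the same 2 did not overlap, as did 58% of all genes. CD4+ DTx cells were below CD4+ PBS cells without overlap for Pmel and Tyrp1, 2 of 4, against 46.3% of all genes in either direction. CD8+ DTx cells were below CD8+ PBS cells without overlap for Pmel and Dct, 2 of 4, against 43.6%. In each cell type 2 of 4 is close to the share of all genes. The identity of these transcripts is therefore not read as a difference between cell types, which was not tested. Against Treg cells, CD4+ DTx cells did not overlap for Tyrp1 and Dct (2 of 4, against 25.4%), and CD8+ DTx cells for Pmel, Tyrp1 and Dct (3 of 4, against 22.6%). These comparisons share the Treg and PBS libraries.

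Folds of group means between PBS and DTx ran from 1.30 to 18.4. In CD4+ cells the PBS mean was 14.0-fold the DTx mean for Tyrp1, 4.03-fold for Dct, 2.81-fold for Pmel and 1.30-fold for Tyr. In CD8+ cells it was 18.4-fold for Dct, 4.58-fold for Pmel, 2.29-fold for Tyr and 2.13-fold for Tyrp1. For the summed level it was 3.46-fold in CD4+ and 3.93-fold in CD8+ cells. The CD8+ values rest on 2 PBS libraries that differed from each other: on the log2 scale the CD8+ DTx over PBS ratio of the sum was -1.98, -0.75 without CD8+ PBS replicate 2 and -2.63 without replicate 3. Treg over CD8+ PBS was likewise 1.18, 2.41 without CD8+ PBS replicate 2 and 0.53 without replicate 3.

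The mixture of the 4 transcripts also varied between libraries. Tyrp1 made up 45.1% of their summed reads in Treg replicate 1 (95% Wilson interval 41.8 to 48.4), 46.5% (42.9 to 50.1) in replicate 2 and 54.5% (51.4 to 57.5) in replicate 3. It made up 24.8% (20.4 to 29.9) and 24.9% (21.8 to 28.3) in CD4+ PBS replicates 2 and 3, and 24.7% (21.2 to 28.6) and 13.3% (8.46 to 20.2) in CD8+ PBS replicates 2 and 3. Among PBS libraries, the 3 highest shares were thus those of Treg cells. In CD4+ DTx cells the share was 0% (0 to 2.07), 5.75% (2.48 to 12.8) and 14.9% (9.08 to 23.5). In CD8+ DTx cells it was 65.9% (57.6 to 73.4), 0% (0 to 5.75) and 36.0% (26.8 to 46.3). CD8+ DTx libraries thus held both the highest share and a share of 0, so the mixture was not fixed within a group.

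**Figure D3:**
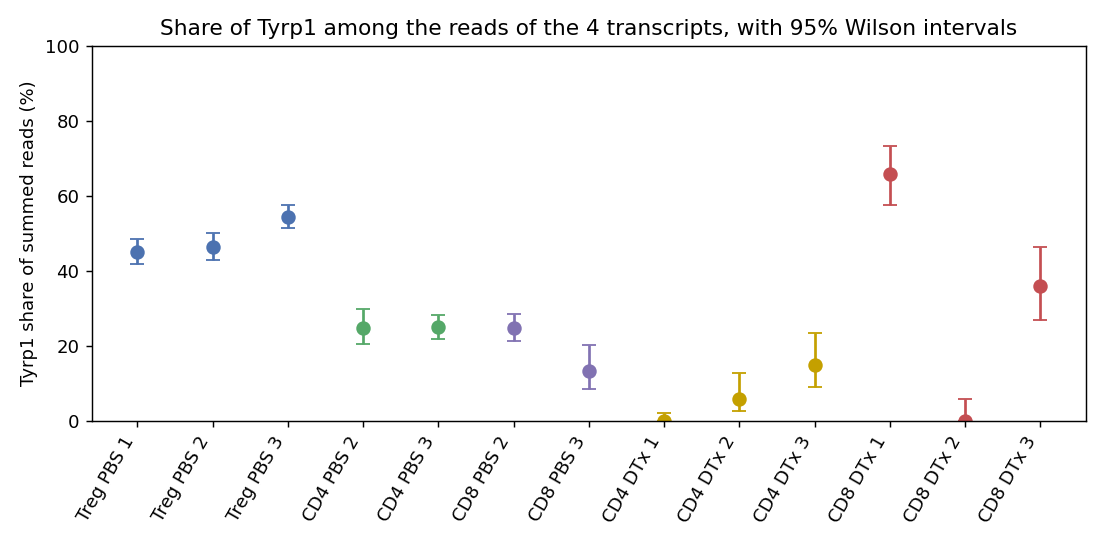
Tyrp1 as a percent of the summed reads of the 4 transcripts in each library, with 95% Wilson intervals that cover counting error only. Treg libraries lie at 45.1% to 54.5% and PBS Tconv libraries at 13.3% to 24.9%, while CD8+ DTx libraries run from 0% to 65.9%.

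Of Tyrp1 and Dct alone, with Pmel and Tyr left out, Tyrp1 made up 52.4%, 64.3% and 73.3% of the reads in Treg replicates 1 to 3. It made up 53.7% and 74.8% in CD4+ PBS cells and 50.2% and 45.9% in CD8+ PBS cells. The Treg and CD4+ PBS ranges overlapped on this measure. In DTx libraries the same share was 0% of 52 reads, 100% of 5 reads and 100% of 14 reads in CD4+ cells. It was 84.8% of 105 reads in CD8+ DTx replicate 1 and 100% of 32 reads in replicate 3, and replicate 2 held no read of either gene. Reads of a single transcript thus made up the whole pair in 4 of the 6 DTx libraries. Pmel was the larger part of all 4 in CD4+ DTx cells, at 67.6%, 80.5% and 60.6%.

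Over the 13 libraries the 4 transcripts were loosely tied to each other. Pearson's r of log2(normalized reads + 1) ran from 0.38 (Dct with Tyr) to 0.65 (Tyrp1 with Dct), and after removing group means from -0.25 (Dct with Tyr) to 0.38 (Tyrp1 with Tyr). These are descriptions over 13 points that share library, depth and group. With the mean of all 4, r was 0.90 for Dct, 0.88 for Tyrp1, 0.68 for Pmel and 0.66 for Tyr, each being part of that mean.

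Genes with the most similar course over the 13 libraries were ranked by Pearson's r with the mean log2 level of the 4. They were led by Cd79a (0.95), which encodes a chain of the B cell receptor complex, and by Ift80 (0.94), an intraflagellar transport gene. Pgbd1 (0.92), Dgkg (0.91), 1700030K09Rik (0.91), 5430403G16Rik (0.90), Btbd16 (0.90), Gm15443 (0.90), Adamts6 (0.90) and Gsta4 (0.90) followed. Of these 10 genes, 6 were also among the top 10 by Spearman's rho, and 1, Cd79a, was so after removing group means. None of the 10 is on the pigment gene lists. Cd79a was at 40.6, 155 and 93.0 normalized reads in Treg replicates 1 to 3, at 72.4 and 52.8 in CD4+ PBS cells and at 42.5 and 3.999 in CD8+ PBS cells. It was at 3.74, 1.02 and 5.27 in CD4+ DTx cells and at 19.4, 0 and 4.04 in CD8+ DTx cells. Like the summed level, Cd79a was higher in replicate 2 than in replicate 3 of CD8+ PBS cells and highest in replicate 1 of CD8+ DTx cells.

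Of 13 other genes of pigment cells listed, 3 had a row and were tested: Trpm1, Mitf and Rab38. The others, such as Mlana, Sox10 and Mc1r, were not analysed here. A gene was called at an adjusted p under 0.05 and an absolute log2 fold change above 2, by limma on log2(normalized reads + 1) with Benjamini-Hochberg adjustment over 12667 genes. Trpm1 was higher in Treg than in CD4+ PBS cells (1 of 3, against 10.2% of all genes called). Mitf was higher in Treg than in CD8+ PBS cells (1 of 3, against 9.41%). Trpm1 was lower in CD4+ DTx than in Treg cells (1 of 3, against 4.01%). No pigment gene was called by limma between DTx and PBS in CD4+ cells (0 of 3, background 6.85%) or in CD8+ cells (0 of 3, background 5.46%), with 0 of 3 in each at an unadjusted p under 0.05. EdgeR and DESeq2 also called 0 there, with 0 at an unadjusted p under 0.05 except 1 by DESeq2 in CD8+ cells. Between CD8+ DTx and Treg cells 0 of 3 were called by limma, edgeR and DESeq2 (background 4.93%), and 1, 0 and 0 had an unadjusted p under 0.05. The study describes the replicates as biological ones from separate days. Whether a replicate number stands for the same day in different groups was not given in the sources used here.

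Trpm1, an ion channel gene of melanocytes and retinal cells, was at 219, 203 and 180 normalized reads in Treg replicates 1 to 3. It was at 0 and 32.4 in CD4+ PBS cells and at 378 and 295 in CD8+ PBS cells. Both CD8+ PBS libraries thus lay above all Treg libraries for Trpm1 and below them for Tyrp1 and Dct. Under DTx it was at 5.61, 23.5 and 0 in CD4+ cells and at 72.1, 61.6 and 37.7 in CD8+ cells. Treg cells exceeded CD4+ PBS cells by 5.12 ± 1.40 on the log2 scale (SE, limma, adjusted p = 0.0217). CD4+ DTx cells differed from Treg cells by -5.20 ± 1.25 (limma, adjusted p = 0.0244). Both differences are on the log2(value + 1) scale and include libraries at 0. Leaving out CD4+ PBS replicate 2, the library at 0, gave 2.59 for the first (limma, adjusted p = 0.263). The first call was also lost without Treg replicate 1 or 2 (limma, adjusted p = 0.0614 and 0.057). The second was lost without Treg replicate 1, 2 or 3 or CD4+ DTx replicate 3 (limma, adjusted p = 0.0758, 0.0799, 0.0603 and 0.0816). Between Treg and CD8+ PBS cells the difference was -0.74 ± 1.40 (limma, adjusted p = 0.745). Between CD8+ DTx and PBS cells it was -2.58 ± 1.40 (limma, adjusted p = 0.260). The spread behind each SE is pooled over all 5 groups, including CD4+ libraries at 0. Every CD8+ DTx library lay below both CD8+ PBS libraries for Trpm1, and 43.6% of all genes likewise did not overlap there.

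The RefSeq promoter of Trpm1 is shown because it holds the same M-box, 142 bases before the first of 2 starts, at chr7:64153585-64153834 (+) in GRCm38.p6, while its levels did not follow those of Tyrp1 and Dct.
Trpm1: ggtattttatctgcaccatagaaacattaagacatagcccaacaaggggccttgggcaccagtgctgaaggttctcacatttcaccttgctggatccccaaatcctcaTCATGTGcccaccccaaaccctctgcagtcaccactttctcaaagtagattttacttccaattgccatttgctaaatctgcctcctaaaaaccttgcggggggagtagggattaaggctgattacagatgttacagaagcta
The window before its second start and the 3 windows of Mitf held no such letters.

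Mitf, the pigment cell transcription factor that other cells also use, was at 55.9, 29.2 and 31.8 normalized reads in Treg replicates 1 to 3. It was at 0 and 50.2 in CD4+ PBS cells and at 0 in both CD8+ PBS libraries. Treg cells were thus at least 9.75-fold higher than CD8+ PBS cells, against the worth of 3 reads in the CD8+ PBS library where it was larger (limma, adjusted p = 0.0432). The call was lost without any 1 of the 3 Treg or 2 CD8+ PBS libraries or without CD8+ DTx replicate 1 or 2 (limma, adjusted p = 0.0548 to 0.198). It was also lost with the replicate number as a block (limma, adjusted p = 0.0619) and with edgeR (adjusted p = 0.118). Under DTx Mitf was at 14.96, 0 and 0 in CD4+ cells and at 1.85, 3.85 and 1.35 in CD8+ cells. Rab38, a melanosome trafficking gene, was at 0 to 21.2 in PBS libraries and above 0 in 1 of 6 DTx libraries, at 12.0. It was not called in any comparison. Correlation with the mean log2 level of the 4 transcripts was 0.37 for Trpm1, 0.43 for Mitf and 0.55 for Rab38 over the 13 libraries.

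**Figure D4:**
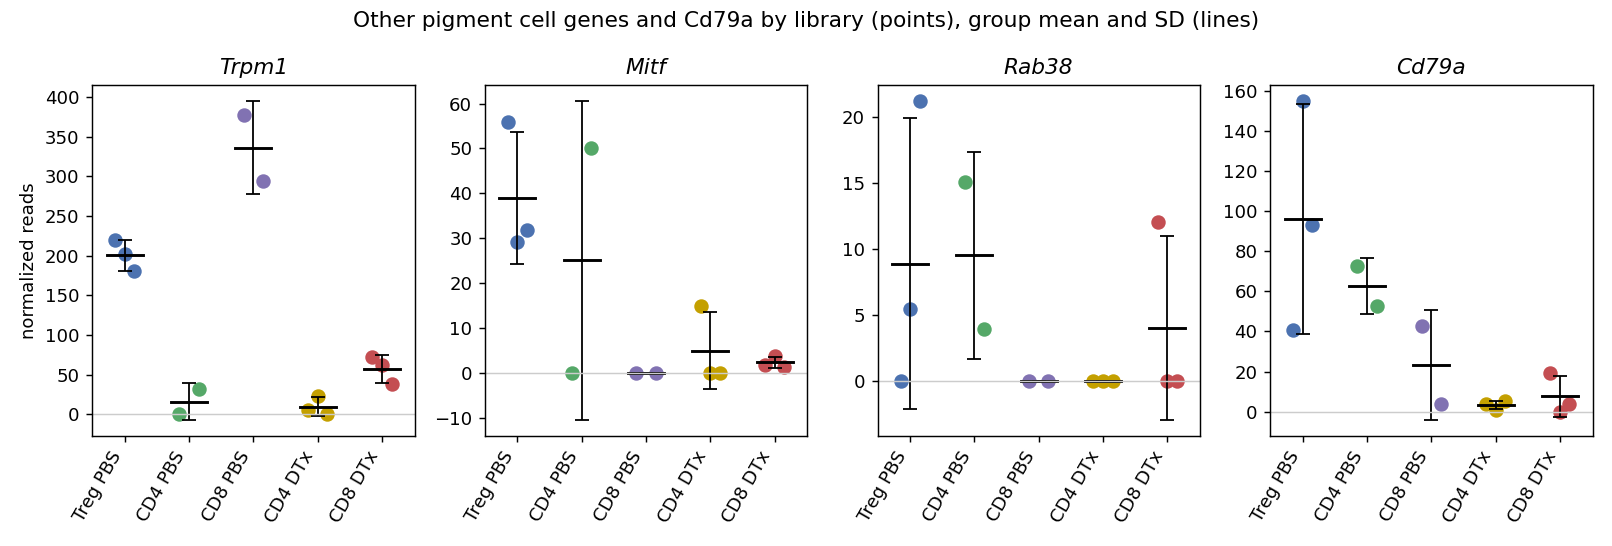
Normalized reads of genes set beside the 4 transcripts, in each library (points) with group mean and SD (bars). Trpm1 is highest in CD8+ PBS libraries at 295 and 378, unlike Tyrp1 and Dct, and Cd79a stays at 0 to 19.4 in the DTx libraries.

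Transcripts of other cell types varied between the same libraries. Of 7 erythroid genes listed, 5 had a row, and their summed level was 948 to 6643 normalized reads in PBS libraries and 0 to 1176 in DTx libraries. Hba-a1, an alpha globin gene, was at 910, 804 and 1347 in Treg cells, 351 and 2886 in CD4+ PBS cells and 686 and 2894 in CD8+ PBS cells. It was thus higher in CD8+ PBS replicate 3 than in replicate 2, the reverse of the 4 melanocyte transcripts. In DTx libraries Hba-a1 was at 0, 452 and 0 in CD4+ cells and at 6.47, 342 and 55.2 in CD8+ cells. Slc4a1, a defining red cell membrane gene, was at 0 in all but 2 PBS libraries. No erythroid gene was called by limma, edgeR or DESeq2 in any of the 6 comparisons. At an unadjusted p under 0.05, limma had 3 of 5 between CD4+ DTx and CD4+ PBS cells and between CD4+ DTx and Treg cells, and edgeR and DESeq2 had 0.

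Macrophage and monocyte genes (13 of 14 with a row) summed to 708 to 4179 in PBS and 139 to 2760 in DTx libraries, so these ranges overlapped. Within that list, Lyz2 and C1qc, both macrophage genes, were called lower in CD8+ DTx than in Treg cells (2 of 12 tested, against 4.93% of all genes, limma adjusted p = 0.046 and 0.0318). Lyz2 was at 809 to 2493 normalized reads in Treg and at 51.0 to 198 in CD8+ DTx cells. Itgam, an integrin that activated T cells can also carry, was at 39.0 to 177 in Treg and at 513 to 1606 in CD8+ DTx cells. EdgeR called 1 and DESeq2 called 3 of the 12 in that comparison. Of 6 B cell genes listed, 5 had a row. Their summed level was 236 to 1133 normalized reads in PBS and 241 to 1767 in DTx libraries. Cd79a was picked above by its likeness to the 4 transcripts, so its levels are given there without a test. Cd79b, the partner chain of Cd79a, was called higher in Treg than in CD4+ PBS cells (limma, adjusted p = 0.00497). That was 1 of 5 B cell genes tested, against 10.2% of all genes, and edgeR and DESeq2 also called 1. Both CD8+ PBS libraries, at 725 and 746 for Cd79b, lay above the Treg libraries, at 401, 686 and 403. Cd79b was also called lower in CD4+ DTx than in Treg cells (limma, adjusted p = 0.0305), where 4.01% of all genes were called. There limma, edgeR and DESeq2 called 2, 1 and 2 of the 5 B cell genes. The 5 include Cd79a, so these counts are not read as a result. It reached its highest level, 1296, in CD8+ DTx replicate 2, where Cd79a was at 0. Cd22, another B cell gene listed, was at 51.7 to 204 in Treg cells, 149 to 399 in CD4+ DTx cells and 133 to 471 in CD8+ DTx cells. Egfl7, an endothelial gene, was at 25.4, 39.0 and 40.0 in Treg cells, at 0 in all PBS Tconv and CD4+ DTx libraries and at 31.4, 21.2 and 0 in CD8+ DTx cells. Egfl7 was called by limma between Treg and each of the 3 groups at 0 (adjusted p = 0.0216 against CD4+ PBS, 0.0235 against CD8+ PBS and 0.0261 against CD4+ DTx cells). It was 1 of 3 endothelial genes tested, against 10.2%, 9.41% and 4.01% of all genes. EdgeR and DESeq2 called 0 of 3 in each. Pecam1, the most abundant of that list, went the other way, at 1633 to 2047 in Treg cells. It was at 7092 to 7291 in CD4+ PBS cells and 3762 to 3865 in CD8+ PBS cells. Vwf, the other gene with a row, overlapped between these groups. Pdgfrb, the only fibroblast gene of 7 with a row, was at 0 in all PBS libraries. The part of any of these cells in the levels of the 4 transcripts was not tested.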

How the data were processed

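T cells were sorted from digested B16-F10 tumors, and RNA libraries (SmartSeq2 per the labels) were sequenced. Per the study's methods, the authors trimmed reads with Cutadapt, aligned them with hisat2 to NCBIM37 (mm9), kept uniquely mapped reads and deposited FPM values, scaled with intergenic reads, as 1 signal value per gene and library. The counter and strand setting were not given in the sources used here. All values (100% within 0.01 read) were whole multiples of 1 step per library, so whole reads were recovered. Date-like names replaced the gene symbol in 21 rows. Groups came from the titles and characteristics.

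Rows reaching 10 normalized reads in 2 or more of the 13 libraries were tested (12667 of 12963) with limma 3.58.1 (trend) on log2(value + 1), 1 mean for each of 5 groups, in 6 comparisons. edgeR 4.0.16 and DESeq2 1.42.0 (R 4.3.3) on recovered reads, other pseudocounts and filters, a replicate block and omission of each library were alternatives. The script was tested on simulated data. Named genes were the 4 transcripts, listed pigment genes with a row, called genes of 2 related lists, label markers, the 10 genes most correlated with the 4, and the most abundant genes of other cell lists. Others are named as chosen after their values were seen (Dgka, Cdk2, Slc4a1, C1qc, Egfl7). Members and lists were chosen with earlier results of these data known. Promoters are from RefSeq (GRCm38.p6): 3 of the 4 transcripts, Trpm1 and Mitf matched an entry, and Pmel and Rab38 are named only.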

Additional observations from a re-analysis of the deposited data

How the results depend on the processing

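No result reversed direction. On the log2 scale, the ratio of the summed level of the 4 transcripts for Treg over CD4+ PBS cells, 1.04, was 0.46 without Tyrp1 and 1.90 without Pmel. CD4+ DTx over CD4+ PBS, -1.79, was -2.28 without Pmel and -2.65 as the mean log2 level. CD4+ DTx over Treg, -2.83, was -1.93 without Tyrp1, -4.18 without Pmel and -3.64 as the mean log2 level. The sum without Pmel was chosen after seeing the data. Leaving out 1 library at a time gave 0.79 to 1.18 for Treg over CD4+ PBS, -2.05 to -1.59 for CD4+ DTx over PBS, -3.09 to -2.58 for CD4+ DTx over Treg and -3.33 to -2.89 for CD8+ DTx over Treg. Of the 3 other pigment genes, the number called fell from 1 to 0 with only the 2 groups compared in the fit (Treg against CD4+ PBS, CD4+ DTx against Treg) and with edgeR (these and Treg against CD8+ PBS). It rose from 0 to 1, Mitf, with only the 2 groups in CD8+ DTx against Treg. Leaving out 1 library gave 0 to 1 in each of the 3 comparisons with a call. With the replicate block, 0 instead of 1 was called for Treg against CD8+ PBS, where Mitf had 4.75 on the log2 scale (limma, adjusted p = 0.0619), and the block changed no other count. Same-numbered libraries correlated at -0.311 to 0.299 in their deviations from group means, so the numbers were not taken as pairs. The cause was not tested.

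Genes called overall went from 508 to 323 with edgeR and 335 without Treg replicate 2 (CD4+ DTx against Treg), and from 692 to 201 with only the 2 groups and 149 without CD8+ PBS replicate 3 (CD8+ DTx against PBS). Without CD8+ PBS replicate 3, Treg against CD8+ PBS went from 1192 to 542. Without CD4+ PBS replicate 3, Treg against CD4+ PBS went from 1292 to 838 and CD4+ DTx against PBS to 496, which is 0.571 of the number with all libraries. Tyrp1 had 0 to 89 and Dct 0 to 52 recovered reads in the DTx libraries, which limits the precision there.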

Other observations

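Genes of melanosome biogenesis and trafficking that many cells share (25 of 25 listed had a row) summed to 24419 to 30602 normalized reads. By limma, 0 of 25 were called in 5 of the 6 comparisons, with 4 to 7 at an unadjusted p under 0.05, where 4.01% to 10.2% of all genes were called. EdgeR called 0 in the same 5, and DESeq2 called 1 of 25 between CD8+ DTx and CD8+ PBS cells. Rab32, a small GTPase of lysosome-related organelles, was lower in CD8+ DTx than in Treg cells by all 3 tools. It was at 393, 377 and 447 normalized reads in Treg cells and at 74.8, 76.1 and 114 in CD8+ DTx cells, a log2 difference of -2.21 ± 0.43 (SE, limma, adjusted p = 0.00625).

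Of 22 genes linked to melanoma or the neural crest, 12 had a row. Those called by limma numbered 5 for Treg against CD4+ PBS cells (4 higher, 1 lower), where 10.2% of all genes were called. They numbered 3 for Treg against CD8+ PBS cells (2 higher, 1 lower, 9.41%). They numbered 3 for CD4+ DTx against PBS (2 higher, 1 lower, 6.85%) and 3 for CD8+ DTx against PBS cells (2 higher, 1 lower, 5.46%). Against Treg cells they numbered 1 for CD4+ DTx (4.01%) and 0 for CD8+ DTx cells (4.93%), where 3 had an unadjusted p under 0.05. EdgeR called 3, 3, 3, 1, 1 and 0 in these comparisons and DESeq2 called 6, 4, 4, 2, 1 and 0. Bace2, a beta-secretase family protease, was at 69.4, 68.2 and 112 normalized reads in Treg cells, 0 and 5.94 in CD4+ PBS cells and 303, 578 and 450 in CD4+ DTx cells. It rose from CD4+ PBS to CD4+ DTx cells by 7.35 ± 0.75 on the log2 scale (limma, adjusted p = 1.43e-04), where Tyrp1 and Pmel had lower levels. That size rests on low CD4+ PBS values: it was 5.87 with a pseudocount of 5, 5.95 without CD4+ PBS replicate 2 and 8.75 without replicate 3, with the call kept in each. The 1 gene called for CD4+ DTx against Treg cells was also Bace2, at 2.39 ± 0.67 (limma, adjusted p = 0.0493). That call was lost in 14 of 21 alternatives. Gpm6b, a membrane proteolipid, rose from CD4+ PBS to CD4+ DTx cells by 2.87 ± 0.39 (limma, adjusted p = 6.19e-04). Lef1, a transcription factor of naive T cells as well as of the neural crest, fell by 2.28 ± 0.29 (limma, adjusted p = 3.75e-04). Kit was at 44.0, 152 and 255 in Treg, 0 and 27.1 in CD4+ PBS and 428 and 108 in CD8+ PBS cells. Its call for Treg against CD4+ PBS cells (4.51, limma, adjusted p = 0.0313) was lost with edgeR (adjusted p = 0.109). Without CD4+ PBS replicate 2, at 0, the Kit difference was 2.105. Zeb2 was at 262 and 6.66 in CD8+ PBS and 530 to 1229 in CD8+ DTx cells (4.29, limma, adjusted p = 0.0199). That difference was 1.74 without CD8+ PBS replicate 3, and edgeR lost the call (adjusted p = 0.0843). Mcam was at 133, 17.3 and 15.3 in Treg cells and at 0 in both CD4+ PBS libraries, at least 13.5-fold higher as a mean (limma, adjusted p = 0.0201). Without Treg replicate 1 the bound was 3.98-fold and the call was lost (limma, adjusted p = 0.0798). It was also lost without CD4+ PBS replicate 2 or 3 (limma, adjusted p = 0.102 and 0.104) and with edgeR (adjusted p = 0.054).

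Cdk2, the opposite-strand neighbour of Pmel, was lower in every CD4+ DTx than in every CD4+ PBS library (501 to 970 against 1011 and 1692) and higher in every CD8+ DTx than in every CD8+ PBS library (786 to 1223 against 573 and 628). The difference between these effects was -1.48 on the log2 scale (limma interaction, adjusted p = 0.598 over all genes tested), so it failed the correction.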
